A study of Homo sapiens with 4 samples.

Results

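The ephrin, netrin and Slit guidance genes are a set of 40 genes for the Eph receptors and their ephrin ligands, the netrins with the receptors of the DCC and UNC5 families, and the Slits with their Robo receptors. They were chosen by name, and each of the 40 matched 1 row among the 64252 rows of the gene count table by its Ensembl identifier in GENCODE 29. RNA sequencing counts came from 4 libraries of SK-N-BE(2), an established human neuroblastoma cell line with amplified MYCN. In 2 libraries the cells carried a control short hairpin RNA (shControl) and in 2 a hairpin against CDK5RAP3 (shCDK5RAP3), whose product works with the UFM1 ligase at the endoplasmic reticulum. The labels do not give the number or sequences of the hairpins, and a response to the loss of CDK5RAP3 and any other effect of the hairpin cannot be told apart. Nothing in the labels says that the 2 libraries of a group came from separate cultures, and p-values measure only the spread between these libraries, which may be technical.

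Guidance cues steer growing axons and migrating cells, and neural crest cells, from which neuroblastoma arises, meet several of them on their way to the sympathetic ganglia. Ephrins stay on the cell surface, the A class by a lipid anchor and the B class by a transmembrane stretch, and signal both into the cell with the Eph receptor tyrosine kinase and back into their own cell. Netrins attract through DCC or neogenin and repel through UNC5 receptors, which can trigger cell death when they are not bound by ligand. Slits are secreted and repel cells that carry Robo receptors.

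Each library held 28653689 to 30138393 counts. CDK5RAP3 mRNA was 87.4 and 98.6 CPM (counts scaled to a common library size of 1e6) in the shControl libraries against 58.5 and 57.1 CPM in the shCDK5RAP3 libraries, a log2 fold change of -0.69 ± 0.08 (SE; edgeR adjusted p = 0.000163). Over all 18775 genes that passed the filter on low counts, 19.7% were higher and 21.8% lower in shCDK5RAP3 at an edgeR adjusted p under 0.05. Markers of noradrenergic neuroblasts were present in every library (7 genes, none at 0, 2401 and 2600 CPM in sum in shControl, 1720 and 1797 in shCDK5RAP3, with 6 of 7 lower). Endothelial markers, listed because several guidance receptors are known from blood vessels, summed to 2.68 to 4.32 CPM over 8 genes, with overlapping sums and PECAM1 at 0 in 3 of the libraries. Of the 3 endothelial markers tested 1 was lower, CDH5, with 17 and 11 counts in shControl and 0 in both shCDK5RAP3 libraries, and it entered the test through shControl. TEK had 5 and 4 counts against 0 and 0. The fibroblast list summed to 593 and 564 CPM in shControl and to 258 and 237 in shCDK5RAP3, with 5 of 7 genes lower. The Schwann cell list was also lower, at 3.94 and 3.10 CPM against 1.58 and 2.30, with S100B lower (55 and 58 counts against 13 and 12, edgeR adjusted p = 0.00123) and SOX10 and FOXD3 at 0. Epithelial markers summed to 7.29 and 8.12 CPM against 4.13 and 4.63, with EPCAM and KRT19 lower among 4 tested and CDH1 at 0. KRT19, with 56 and 74 counts in shControl against 9 and 22, entered the test through shControl. Leukocyte markers summed to 3.42 and 4.06 CPM against 2.84 and 1.86, with 0 of 3 tested called by edgeR and CD3E at 0. The part of these shifts in the results below was not tested. In bulk RNA, fewer cells of a type and less RNA per cell cannot be told apart.

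Of the 40 guidance genes, 31 passed the filter and were tested. Among these, 12 were lower and 3 were higher in shCDK5RAP3, and 16 did not pass. As shares of those tested this was 38.7% lower and 9.68% higher, beside 21.8% and 19.7% for all tested genes. The median log2 fold change was -0.42 over the 31 genes and -0.0034 over all tested genes. Groups did not overlap for 27 of the 31, with both shControl libraries above in 23 and below in 4, beside 71.4% of all tested genes without overlap (36.4% with both shControl libraries above and 35.0% with both below). At least 2-fold changes that passed were 4 falls (UNC5A, UNC5D, EFNA3 and ROBO3) and 1 rise (EPHA4), beside 7.29% and 3.22% of all tested genes. EPHA4 entered the test only through its level in shCDK5RAP3. Its rise adds nothing to that comparison, to the count of higher genes or to the 4 with both shControl libraries below. Of the 16 that did not pass, 13 had a negative log2 fold change. The matching share over all genes that did not pass was not counted, so the 13 are a description only. Among the 13, NTN1 entered the test only through its level in shControl. Its negative value adds nothing to the 13 or to the 23 with both shControl libraries above. Neither EPHA4 nor NTN1 adds to the 27 without overlap. The counts rest in part on single libraries: without shCDK5RAP3 replicate 2, edgeR called 7 lower and 0 higher (2 higher at an unadjusted p under 0.05), and without shCDK5RAP3 replicate 1 it called 8 lower and 1 higher. Calls over all genes dropped in the same fits, from 4088 lower and 3704 higher to 2196 and 1556 without replicate 2, and to 2604 and 2232 without replicate 1. UNC5A, UNC5D, SLIT3, ROBO2, ROBO3 and EFNB2 were called lower under all 14 alternatives fitted for single genes. For the other genes a bare value in parentheses after a named alternative is the adjusted p under it, from edgeR unless DESeq2 is named.

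**Figure D1:**
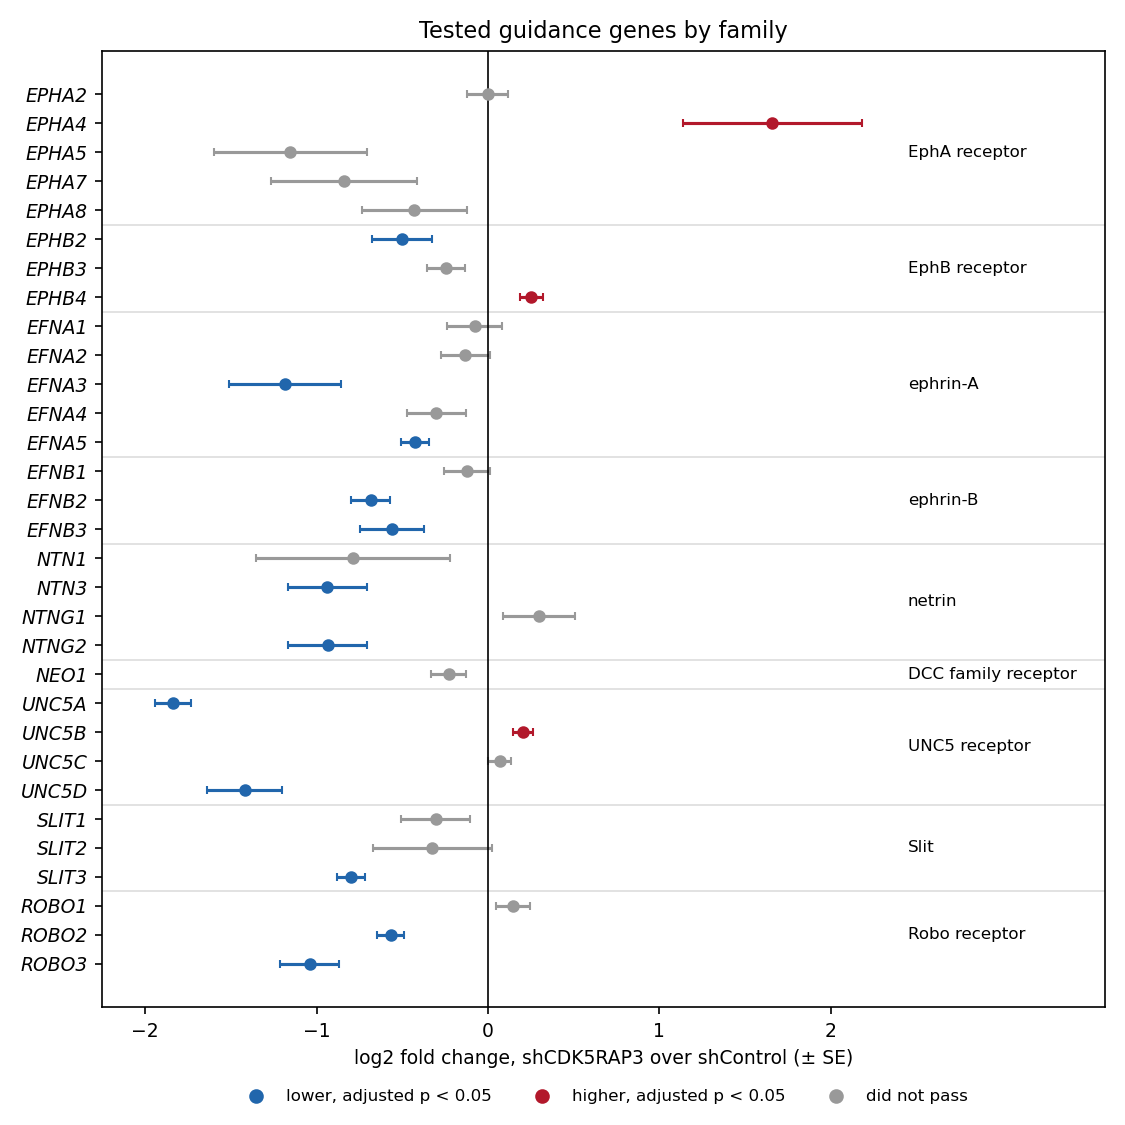
Log2 fold change of shCDK5RAP3 over shControl (x axis, bars ± SE) for the 31 tested guidance genes, grouped by family. Blue points were lower and red points higher at an edgeR adjusted p under 0.05, and grey points did not pass. UNC5A lies farthest to the left at -1.84 and EPHA4 farthest to the right at 1.66.

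The receptors UNC5A and UNC5D fell most of the guidance genes, while their paralog UNC5B was slightly higher. UNC5A, a netrin receptor of neurons (ENSG00000113763, GRCh38 chromosome 5, 176810477 to 176880898), had 40.2 and 39.2 CPM in the shControl libraries and 10.4 and 11.8 CPM in the shCDK5RAP3 libraries. Both shCDK5RAP3 libraries stood far below both controls. The gene fell to 28.0% of its control level (39.7 ± 0.772 against 11.1 ± 1.03 CPM, SD, n = 2 each), a log2 fold change of -1.84 ± 0.11 (SE; edgeR adjusted p = 4.92e-06). UNC5D (ENSG00000156687), which besides netrin binds FLRT proteins, went from 10.7 and 7.67 CPM to 3.71 and 3.14 CPM. Its control libraries differed from each other more than those of UNC5A did, but neither reached down to the shCDK5RAP3 level (log2 fold change -1.42 ± 0.22 SE, edgeR adjusted p = 0.000839).

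UNC5B and UNC5C carried most of the UNC5 transcripts, per kilobase of exon as well. UNC5B, which is known from vessels as well as neurons (ENSG00000107731, chromosome 10, 71212570 to 71302864), had 207 and 211 CPM in shControl and 245 and 237 CPM in shCDK5RAP3, a rise of 1.15-fold (log2 0.21 ± 0.06 SE, edgeR adjusted p = 0.022). The groups were separate, but the step is small. Its call was lost without a filter (0.0579) and without shControl replicate 1 (0.0584), shCDK5RAP3 replicate 1 (0.164) or shCDK5RAP3 replicate 2 (0.124). UNC5C, with 251 and 229 against 255 and 248 CPM, had overlapping groups (log2 0.07 ± 0.07 SE, edgeR adjusted p = 0.44). Summed over the 4 UNC5 genes, the level was 508 and 487 CPM in shControl and 514 and 500 CPM in shCDK5RAP3, so the sums overlapped while UNC5A and UNC5D became a smaller part of them.

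**Figure D2:**
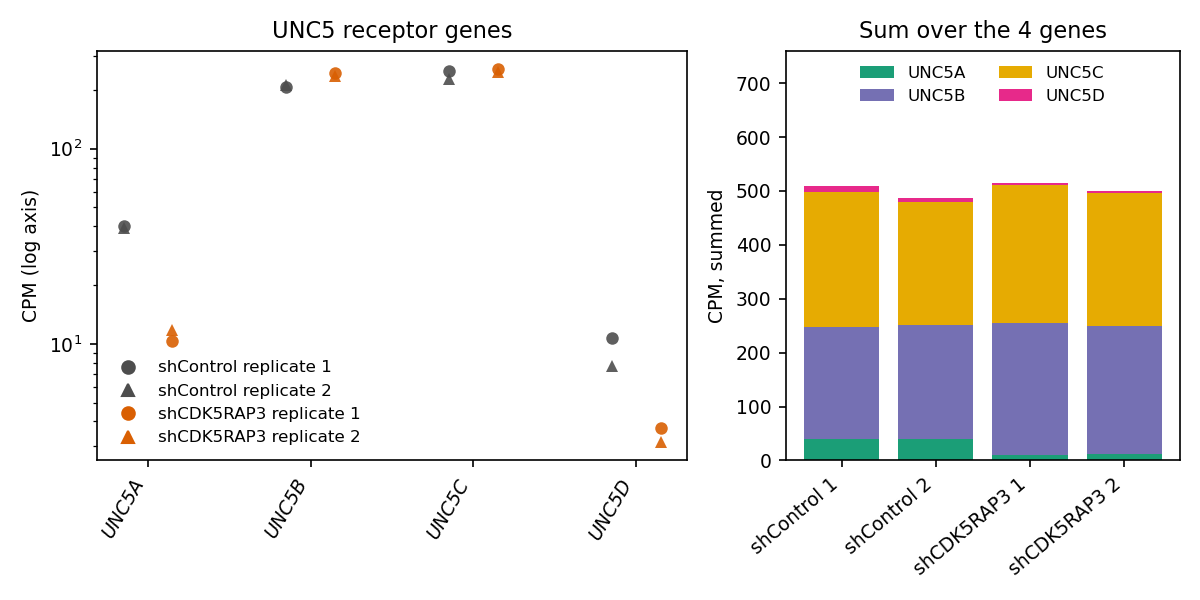
Left, CPM of the 4 UNC5 receptor genes in each library on a log axis, with circles for replicate 1 and triangles for replicate 2. Right, the same CPM stacked per library. The stacks reach 487 to 514 CPM in all libraries, while UNC5A fell from about 40.2 and 39.2 to 10.4 and 11.8 CPM.

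Of the other netrin receptors, DCC, the classical attractive receptor, had 0 counts in every library. At these depths 0 counts allow up to 3 counts, or 0.101 to 0.105 CPM, for counting error only. Its relative NEO1 (neogenin), which also binds the RGM proteins, was present at 46.2 and 38.9 CPM in shControl and 37.5 and 35.1 CPM in shCDK5RAP3. The NEO1 groups did not overlap, yet the difference did not pass (log2 -0.23 ± 0.10 SE, edgeR adjusted p = 0.103). NEO1 did pass without shControl replicate 2 (0.0154).

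The netrin ligands had few counts. NTN1, the best known secreted netrin, had 12 and 14 counts in shControl and 7 and 8 in shCDK5RAP3, too few for a call (log2 -0.79 ± 0.57 SE, edgeR adjusted p = 0.302). It entered the test only through its level in shControl. NTN4, a basement membrane netrin, was at 0 in every library. NTN3 (ENSG00000162068, chromosome 16, 2471499 to 2474145) had 121 and 149 counts in shControl and 76 and 65 in shCDK5RAP3 (mean 4.65 ± 0.667 against 2.43 ± 0.329 CPM, SD, n = 2 each). It fell to 52.2% of control with separate groups (log2 -0.94 ± 0.23 SE, edgeR adjusted p = 0.01). The NTN3 call was lost without a filter (0.0616) and without shCDK5RAP3 replicate 2 (0.1).

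The netrin-G proteins are lipid-anchored relatives that bind the NGL adhesion molecules and not DCC. NTNG2 had 9.23 and 9.60 CPM in shControl and 3.71 and 6.12 CPM in shCDK5RAP3, so that the control libraries lay close together and the others apart. Its log2 fold change was -0.94 ± 0.23 (SE; edgeR adjusted p = 0.0106), but -0.61 without shCDK5RAP3 replicate 1, where it did not pass (0.073), and -1.35 without shCDK5RAP3 replicate 2. It did not pass without a filter either (0.127). NTNG1, at 2.94 and 3.13 against 3.71 and 3.75 CPM, had both shCDK5RAP3 libraries above control and did not pass (log2 0.30 ± 0.21 SE, edgeR adjusted p = 0.291).

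In the Slit and Robo pair of families, SLIT3, ROBO2 and ROBO3 fell, whereas the most abundant Robo gene, ROBO1, did not pass. SLIT3 (ENSG00000184347, chromosome 5, 168661733 to 169301129), a secreted repellent, had 175 and 154 CPM in shControl and 98.6 and 90.3 CPM in shCDK5RAP3. Both shCDK5RAP3 libraries were well below the lower control. The fall to 57.5% of control (164 ± 14.9 against 94.4 ± 5.83 CPM, SD, n = 2 each) had a log2 fold change of -0.80 ± 0.08 (SE; edgeR adjusted p = 9.07e-05). SLIT1 (6.91 and 5.19 against 4.90 and 4.90 CPM) and SLIT2 (1.31 and 1.10 against 1.02 and 0.913 CPM) were lower in both shCDK5RAP3 libraries and did not pass (edgeR adjusted p = 0.261 and 0.494). Over the 3 Slit genes the sum was 183 and 160 CPM in shControl and 104 and 96.1 CPM in shCDK5RAP3, nearly all of it SLIT3.

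ROBO2 (ENSG00000185008, chromosome 3, 75906695 to 77649964), a Slit receptor of axons, had 2747 and 2416 counts in shControl and 1752 and 1738 in shCDK5RAP3 (mean 89.0 ± 8.38 against 60.1 ± 1.85 CPM, SD, n = 2 each). With separate groups it fell to 67.4% of control (log2 -0.57 ± 0.08 SE, edgeR adjusted p = 0.000572). ROBO3 (ENSG00000154134, chromosome 11, 124865386 to 124881470), a divergent Robo known for commissural axons and for binding NELL2, had 11.5 and 13.0 CPM in shControl against 5.29 and 6.63 CPM. It fell to 48.6% of control, again without overlap (log2 -1.04 ± 0.17 SE, edgeR adjusted p = 0.00136).

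ROBO1, which lies beside ROBO2 on chromosome 3, had 3246 and 2616 counts in shControl and 3315 and 3193 in shCDK5RAP3, with shControl replicate 1 between the shCDK5RAP3 libraries in CPM, so the groups overlapped (log2 0.15 ± 0.10 SE, edgeR adjusted p = 0.271). Its value turned on the control libraries, since it passed at 0.31 without shControl replicate 1 (0.00597) and was -0.0059 without shControl replicate 2 (0.965). ROBO4, the endothelial Robo, had 4 and 3 counts in shControl and 0 and 3 in shCDK5RAP3 and was not tested.

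Among the ephrins, EFNB2, EFNB3, EFNA5 and EFNA3 fell and no ephrin rose. EFNB2, the ligand of EPHB4 that marks arteries and neural crest paths (ENSG00000125266, chromosome 13, 106489731 to 106535662), had 34.5 and 31.3 CPM in shControl and 22.3 and 18.6 CPM in shCDK5RAP3. It fell to 62.2% of control with separate groups (32.9 ± 2.28 against 20.5 ± 2.66 CPM, SD, n = 2 each; log2 -0.68 ± 0.12 SE, edgeR adjusted p = 0.0015). Over 1313 exon bases EFNB2 overlaps the antisense gene AL138689.2, and reads of the pair cannot be told apart here. Other tested genes have shorter overlaps with genes on the opposite strand. These are EPHA5 (535 bases), EPHA4 (353), SLIT3 (334, 216 and 113), UNC5C (78), EPHB4 (69), EPHB2 (34) and UNC5A (30). EFNA5, a lipid-anchored ligand used in topographic maps (ENSG00000184349, chromosome 5, 107376889 to 107670895), had 43.6 and 45.6 CPM in shControl and 33.2 and 33.3 CPM in shCDK5RAP3. Its libraries lay very close within each group, and the gene fell to 74.5% of control (log2 -0.42 ± 0.08 SE, edgeR adjusted p = 0.003), with an adjusted p of 0.0525 without shCDK5RAP3 replicate 2.

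The other ephrin falls were at low levels. EFNB3, an ephrin of midline barriers, had 5.60 and 5.85 CPM in shControl against 3.71 and 4.06 CPM (log2 -0.56 ± 0.19 SE, edgeR adjusted p = 0.04). Its call was lost without a filter (0.078), with DESeq2 (0.133) and without each library in turn (0.0717 without shControl replicate 1, 0.113 without shControl replicate 2, 0.168 without shCDK5RAP3 replicate 1, 0.11 without shCDK5RAP3 replicate 2). EFNA3, with 50 and 59 counts against 21 and 27, fell to 44.0% of control (log2 -1.18 ± 0.33 SE, edgeR adjusted p = 0.0173). That call was lost without a filter (0.0541), with DESeq2 (0.0795) and without shControl replicate 2 (0.0813), shCDK5RAP3 replicate 1 (0.0932) or shCDK5RAP3 replicate 2 (0.0658). The remaining ephrins did not pass: EFNB1 had 19.7 and 23.0 against 17.6 and 21.7 CPM and overlapped, and EFNA1 (log2 -0.08), EFNA2 (-0.13) and EFNA4 (-0.30) had both shControl libraries above. EFNA3 and EFNA4 share exon sequence with the read-through gene AL691442.1, which had 10, 0, 6 and 0 counts.

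Eph receptors went both ways. EPHB4, the receptor of ephrin-B2 (ENSG00000196411, chromosome 7, 100802565 to 100827521), was the most abundant of them, with 116 and 113 CPM in shControl and 132 and 141 CPM in shCDK5RAP3. It rose 1.19-fold with separate groups (115 ± 2.08 against 137 ± 6.41 CPM, SD, n = 2 each; log2 0.25 ± 0.07 SE, edgeR adjusted p = 0.0126). The call was lost without a filter (0.0755) and without shCDK5RAP3 replicate 1 (0.0515) or shCDK5RAP3 replicate 2 (0.164).

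EPHB2, a receptor of B ephrins (ENSG00000133216), had 8.12 and 7.12 CPM in shControl and 5.64 and 5.14 CPM in shCDK5RAP3. It fell to 70.7% of control (log2 -0.50 ± 0.18 SE, edgeR adjusted p = 0.0466), close to the threshold. It passed in 8 of 14 alternatives, and not with upper-quartile factors (0.0578), without a filter (0.102), with DESeq2 (0.124), or without shControl replicate 1 (0.184), shCDK5RAP3 replicate 1 (0.118) or shCDK5RAP3 replicate 2 (0.204). EPHB3 had 18.0 and 17.9 against 15.5 and 14.8 CPM and did not pass (log2 -0.24 ± 0.11 SE, edgeR adjusted p = 0.114).

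Of the EphA receptors, EPHA4, which binds ephrins of both classes (ENSG00000116106, chromosome 2, 221418027 to 221574202), rose from 12 and 7 counts to 21 and 40. Its log2 fold change was 1.66 ± 0.52 (SE; edgeR adjusted p = 0.03), and it entered the test through its level in shCDK5RAP3. Under the filter of CPM 1 or more in 2 libraries EPHA4 was not tested. The call was lost without a filter (0.134), with DESeq2 (0.0901) and without shControl replicate 2 (0.128) or shCDK5RAP3 replicate 2 (0.255). EPHA2, a receptor of ephrin-A1 found in many tumour lines, had 16.2 and 15.1 CPM in shControl and 16.0 and 15.2 CPM in shCDK5RAP3, with overlapping groups (log2 -0.0014 ± 0.12 SE, edgeR adjusted p = 0.994). EPHA5 (37 and 34 counts against 10 and 22), EPHA7 (65 and 41 against 40 and 19) and EPHA8 (61 and 65 against 36 and 58) were lower in both shCDK5RAP3 libraries and did not pass (edgeR adjusted p = 0.0676, 0.146 and 0.294).

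The 9 genes that were not tested had few or no counts. EPHA3, NTN4 and DCC were at 0 in every library. EPHA6 had 3 and 6 counts in shControl and EPHA10 had 4 and 3, with 0 in both shCDK5RAP3 libraries for each. EPHB6 (3, 5, 2 and 0, shControl first), EPHB1 (19, 2, 4 and 7) and EPHA1 (7, 4, 22 and 8) were also near the floor, and the reads of EPHA1 overlap those of the adjoining ZYX on the other strand, which had 2039 to 3429 counts.

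**Figure D3:**
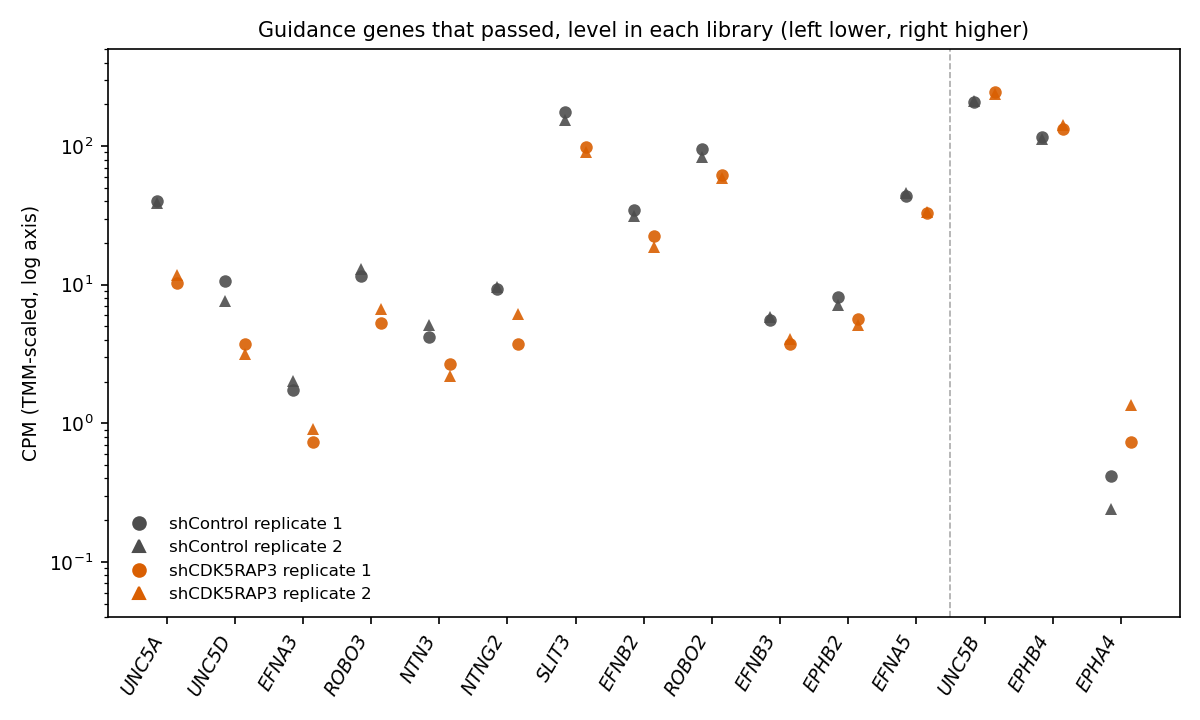
CPM on a log axis in each library for the 15 guidance genes that passed, shControl in grey and shCDK5RAP3 in orange, circles for replicate 1 and triangles for replicate 2. The 12 genes left of the dashed line were lower, from UNC5A to EFNA5, and the 3 to its right were higher, with EPHA4 near 1 CPM and UNC5B above 200 CPM.

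To compare levels between genes, CPM was divided by the kilobases of merged exons. On this scale UNC5B (30.6 ± 0.454, SD, n = 2, in shControl), UNC5C (22.4 ± 1.45) and EPHB4 (17.8 ± 0.323) led, each apart from the next by more than its spread. EFNA2 (11.7 ± 0.139) and SLIT3 (11.5 ± 1.05) followed and did not differ beyond their spread, and neither did ROBO1 (9.30 ± 1.44) and UNC5A (9.11 ± 0.177). In shCDK5RAP3 UNC5A stood at 2.55 ± 0.237, below the unpassed EPHA2 at 3.76 ± 0.136, and SLIT3 at 6.62 ± 0.409. Divided by the longest annotated transcript instead, the leading 3 kept their order, and EFNA2 came after SLIT3 (16.9) and ROBO1 (13.5).

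**Figure D4:**
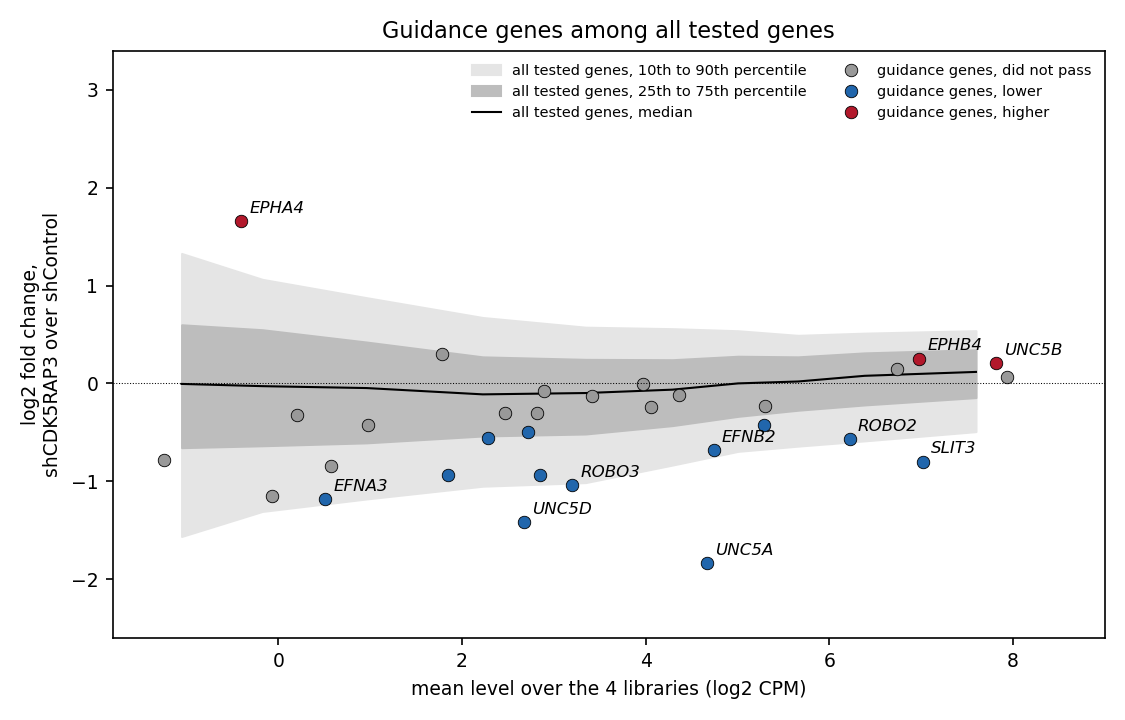
Log2 fold change (y axis) against mean log2 CPM over the 4 libraries (x axis) for the 31 tested guidance genes, over the spread of all 18775 tested genes in 10 classes of level. The grey bands hold the middle of all genes, from the 10th to the 90th and from the 25th to the 75th percentile. UNC5A, UNC5D and SLIT3 lie clearly below the wider band, ROBO3 lies at its lower edge, and EPHA4 lies above it.

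Guidance receptors act through adaptors, kinases and regulators of the cytoskeleton. A list of 64 such partners was drawn up from general knowledge, with earlier results of these data known. Its shares are therefore no independent support. Of the 64, 57 were tested, of which 25 were lower (43.9%) and 10 higher (17.5%), with a median log2 fold change of -0.19. On the netrin side 10 of 18 tested were lower and 1 was higher, on the Slit side 8 of 17 lower and 5 higher, and on the ephrin side 7 of 22 lower and 4 higher, beside 21.8% lower and 19.7% higher over all tested genes. ABLIM3 had 16 and 25 counts in shControl against 5 and 2, and NGEF had 40 and 29 against 9 and 15. Both entered the test through shControl, so their falls add nothing to these counts of lower partners. The steepest falls by the naming rule were in GRIP1, a scaffold that binds B ephrins and Eph receptors (429 and 390 counts against 95 and 101, log2 -2.07 ± 0.16 SE, edgeR adjusted p = 2.42e-05), the netrin receptor relative DSCAML1 (-1.37), the microtubule protein MAP1B (-1.11) and the DCC-binding ubiquitin ligase TRIM9 (50.1% of control).

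MAP1B, a neuronal protein needed downstream of netrin, had 880 and 736 CPM in shControl and 394 and 353 CPM in shCDK5RAP3 with separate groups. The largest rises were in the actin regulators CAP2 (83 and 86 counts against 172 and 195, log2 1.11 ± 0.19 SE, edgeR adjusted p = 0.00173) and VASP (0.72), the UNC5 ligand FLRT3 (0.41) and the focal adhesion kinase PTK2 (0.33). Without shCDK5RAP3 replicate 2 the partners counted 13 lower and 2 higher, and without shCDK5RAP3 replicate 1 they counted 19 lower and 3 higher. Those of DSCAML1, VASP and FLRT3 were among the calls lost without shCDK5RAP3 replicate 2 (0.107, 0.0635 and 0.096), as were FLRT3 and PTK2 without shCDK5RAP3 replicate 1 (0.0717 and 0.0511). DSCAML1 and VASP were also lost without a filter (0.14 and 0.054), and the log2 fold change of DSCAML1 moved to -2.01 when shCDK5RAP3 replicate 1 was dropped and to -0.92 when replicate 2 was.

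Short words in 3′ UTRs, AACACCT and ACACCTA, went with lower expression across these libraries in earlier work on the same data and were taken from there, so their shares below are no independent support. Of the 31 tested guidance genes, 8 hold AACACCT or ACACCTA on the transcript strand of their longest annotated 3′ UTR, and 5 of these were lower, 1 higher and 2 did not pass. Of the 23 without either word 7 were lower and 2 higher. Among all tested genes with a 3′ UTR, 42.6% of 2076 with a word were lower, beside 23.7% of 11484 without, and 14.2% against 24.4% were higher. The UTRs with a word were longer (median 3086 against 1173 bases). The sites are shown because UNC5A, EFNB2 and ROBO2 are among the steady falls; capitals mark the word, and each run reads 5′ to 3′ from GENCODE 29 transcripts with GRCh38 positions.
UNC5A (chr5:176879891-176879919, + strand): ggccaggcccgACACCTAcactctcacca
EFNB2 (chr13:106492987-106493015, - strand): tttcccagaggACACCTAatgtcccgatg
ROBO2 (chr3:77649338-77649366, + strand): tgctttgatggAACACCTctcaatttcta
NTNG2 (chr9:132244000-132244028, + strand): agataaaataaAACACCTctctggggctt
EPHB2 (chr1:22919523-22919551, + strand): cctgttcactcAACACCTggccaggcggg
UNC5B (chr10:71301097-71301125, + strand): cccgcttccccAACACCTccaggcagtga
NEO1 (chr15:73305012-73305040, + strand): gggggatttggAACACCTgtgtctgtcgc
EPHA7 (chr6:93243153-93243181, - strand): aaaaacatccaAACACCTtgagctctcta
UNC5A, EFNB2, ROBO2, NTNG2 and EPHB2 were lower, UNC5B was higher, and NEO1 and EPHA7 did not pass. SLIT3, UNC5D and ROBO3 fell without either word in their longest annotated 3′ UTRs of 4721, 5987 and 216 bases. A match is a description, and the part of the words in these changes was not tested.

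RefSeq promoter windows (GRCh38.p14, 250 bases before to 50 after a start) were at hand for 33 of the 40 genes, in 46 windows. The E-box CACGTG, the motif that MYC and MYCN proteins bind, was found in 1 of the 46 windows, that of EPHA8, against 7.26% of all 35116 windows. MYCN mRNA itself was lower, at 4674 and 4921 CPM in shControl against 2813 and 2881 in shCDK5RAP3 (log2 -0.75 ± 0.05 SE, edgeR adjusted p = 6.74e-06). The part of this fall in the other changes was not tested. The AP-1 motif TGANTCA was in 0 of 46 windows, against 7.71% of all. The GC box GGGCGG was in 37 of 46, against 45.0% of all, and the guidance windows were richer in G and C (median 65.7% against 58.7%). Motifs were searched on both strands and counted with overlaps. The promoters of 3 genes that were called lower in every alternative are shown, with the GC boxes in capitals.
UNC5A promoter (chr5:176810309-176810608, + strand): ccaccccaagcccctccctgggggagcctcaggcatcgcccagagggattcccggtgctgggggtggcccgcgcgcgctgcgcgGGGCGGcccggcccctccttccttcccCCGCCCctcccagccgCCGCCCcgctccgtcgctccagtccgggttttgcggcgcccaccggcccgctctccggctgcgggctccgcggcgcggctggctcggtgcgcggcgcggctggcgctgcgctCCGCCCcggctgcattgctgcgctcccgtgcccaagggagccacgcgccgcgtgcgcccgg
SLIT3 promoter (chr5:169301090-169301389, - strand): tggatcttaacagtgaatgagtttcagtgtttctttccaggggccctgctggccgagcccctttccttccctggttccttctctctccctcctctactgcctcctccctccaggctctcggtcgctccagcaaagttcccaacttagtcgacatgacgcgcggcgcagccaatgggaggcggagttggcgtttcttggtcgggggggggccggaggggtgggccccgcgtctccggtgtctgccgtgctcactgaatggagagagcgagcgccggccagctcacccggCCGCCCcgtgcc
EFNB2 promoter (chr13:106535613-106535912, - strand): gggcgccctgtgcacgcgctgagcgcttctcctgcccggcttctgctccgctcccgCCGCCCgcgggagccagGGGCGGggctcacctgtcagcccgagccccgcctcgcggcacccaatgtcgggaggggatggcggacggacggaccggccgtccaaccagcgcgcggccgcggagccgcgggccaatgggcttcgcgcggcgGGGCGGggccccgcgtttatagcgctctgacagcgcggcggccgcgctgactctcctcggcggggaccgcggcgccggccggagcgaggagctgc
UNC5A has 4 GC boxes, SLIT3 has 1 and EFNB2 has 3, and none of the 3 windows holds CACGTG or TGANTCA.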

How the data were processed

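Libraries of total RNA (TRIzol, TruSeq RNA kit, per the labels' protocols) came from SK-N-BE(2) cells, 2 per group. The deposited values are raw read counts by Ensembl gene in a single table, whole numbers with no scaling. HISAT2 2.2.0, StringTie and hg38 are named per the submitters' processing notes. Which annotation release and strand setting were used, and how multi-mapped reads were treated, is not stated there, so reads of genes that overlap on opposite strands cannot be told apart.

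Columns were matched to samples by their descriptions. Of 64252 rows, 56591 matched GENCODE 29 (GRCh38), and the other 7661, with 1.82% to 1.90% of a library's counts, stayed in the tests. The comparison used edgeR 4.0.16 in R 4.3.3 with TMM factors, the default filter by group, the quasi-likelihood test and Benjamini-Hochberg adjustment over 18775 genes at 0.05, with no replicate block. SE is the log2 fold change over the square root of F, and CPM uses TMM-scaled library sizes. The scripts were tested on simulated data. A count of 0 allows up to 3 counts, for counting error only. Libraries of 1 group differed by more than counting noise (chi-square per degree of freedom 6.79 and 8.70, against 78.2 to 88.8 between groups).

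The members, the partner list, the marker lists and the 3′ UTR words were chosen with earlier results of these data known. All members are named or counted, and of the partners the 4 largest rises and falls that passed with a mean log2 CPM of at least 1. The alternatives changed the scaling (RLE, upper quartile, library size), the filter (none, or CPM of 1 or more in 2 libraries), the tool (DESeq2 1.42.0, limma-trend in limma 3.58.1, the robust edgeR fit) and the threshold (0.01). Others added the replicate number as a block, summed rows of a symbol, dropped each library, or, with no new fit, dropped genes with a 3′ UTR word.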

Additional observations from a re-analysis of the deposited data

How the results depend on the processing

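Counts of calls moved most with the filter, the threshold and the libraries of shCDK5RAP3. Without a filter edgeR called 7 guidance genes lower and 0 higher (15 and 3 at an unadjusted p under 0.05), 2522 and 1966 of all genes, and 16 and 3 partners. At a threshold of 0.01 edgeR called 7 guidance genes lower and 0 higher (13 and 3 at an unadjusted p under 0.05; DESeq2 called 9 and 2 at 0.05, and 3432 and 3265 of all genes), 2814 of all genes lower and 2421 higher, and 17 partners lower and 4 higher. Leaving out each library gave 7 to 11 guidance genes lower and 0 to 3 higher, 2196 to 3813 of all genes lower and 1556 to 3516 higher, and 13 to 24 partners lower and 2 to 10 higher; where 1 library was left in a group, it was assumed to vary like the other group. Among genes without a 3′ UTR word 7 guidance genes were lower, out of 23 tested. These calls were taken from the main fit with no new fit, so their number could not exceed that of the full set. With the replicate number as a block, 14 guidance genes were lower and 4 higher, beside 4718 and 4430 of all genes, more than the 4088 and 3704 without it; EPHA5 (0.0463), NEO1 (0.0273) and ROBO1 (0.035) then passed. The labels give the replicate only as a number, and the replicate differences of the groups had a correlation of 0.16 over 14026 genes. EPHA2 turned positive with RLE factors (0.0079), upper-quartile factors (0.030), DESeq2 (0.0079) and the CPM filter (0.0027), and over the libraries left out it ranged from -0.058 to 0.051. On the same leave-one-out fits EFNB1 ranged from -0.29 to 0.029 and ROBO1 from -0.0059 to 0.31; of these, ROBO1 passed without shControl replicate 1. The cause of these changes was not tested. Members under about 10 counts a library were below what this depth can compare.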

Other observations

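Several guidance genes overlap a gene on the opposite strand, and the strand setting of the counts is not stated. AC011365.2, antisense to SLIT3 over 334 exon bases, had 16 and 17 counts in shControl and 5 and 5 in shCDK5RAP3 (log2 -1.70, edgeR adjusted p = 0.0425) and entered the test through its level in shControl, while AC011365.1, antisense over 216 bases, had 13, 23, 17 and 8 counts (edgeR adjusted p = 0.501). SLC12A9, which shares 69 exon bases with EPHB4, fell by 0.45 on the log2 scale (1009 and 1051 counts against 713 and 804, edgeR adjusted p = 0.0044), where EPHB4 rose. ZYX, the zyxin gene of focal adhesions, which shares 82 exon bases with EPHA1, rose by 0.72 (edgeR adjusted p = 4.12e-05). AC106881.1, antisense to UNC5C over 78 bases, had 513 and 479 counts against 534 and 594 (edgeR adjusted p = 0.229). HK3, which shares 30 bases with UNC5A, had 9 and 3 counts against 7 and 1, far below the counts of UNC5A. AC079834.2, antisense to EPHA4 over 353 bases, had 0 and 0 counts in shControl against 2 and 0 in shCDK5RAP3. EPHA5-AS1, which shares 535 bases with EPHA5, had 3 and 2 counts against 0 and 1. The longest such overlap is at EFNB2, where AL138689.2 lies antisense over 1313 exon bases and matched no row of the count table, so any reads of it cannot be told apart from those of EFNB2.

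Among the partner genes outside the naming rule, and chosen after their values were seen, FLRT2, a ligand of UNC5D, fell by 2.28 on the log2 scale (60 and 62 counts against 11 and 14), whereas FLRT3 rose by 0.41 and FLRT1 did not pass (edgeR adjusted p = 0.169). The Slit-Robo GTPase-activating genes SRGAP3 (-0.87) and SRGAP1 (-0.40) fell, and SRGAP2 did not pass (edgeR adjusted p = 0.995).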
